A study of Capra hircus with 29 samples.

Results

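The genes described here code for splicing factors and heterogeneous nuclear ribonucleoproteins (hnRNPs). They were taken from the oocyte expression table by their symbols: SRSF followed by a digit, SNRP followed by a letter or digit, SF3A or SF3B, PRPF followed by a digit, or HNRNP followed by a letter. This gave 96 rows with 64 symbols out of 21343 genes: 24 SNRP rows, 10 SF3 rows, 14 PRPF rows, 16 SRSF rows and 32 HNRNP rows. The values are FPKM, fragments scaled to transcript length and to all mapped fragments. Whether this scaling held evenly for short and long transcripts was not tested. Gaps between different genes are therefore gaps in listed FPKM, and their size in transcripts is uncertain.

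RNA was sequenced from oocytes of Ji'ning grey goats, a prolific breed, from a high fertility and a low fertility population, which differ in litter size. Oocytes were grouped by follicle size into large, medium and small follicles, which gave the groups HLO, HMO and HSO for the high fertility goats and LLO, LMO and LSO for the low fertility goats. There were 5 samples in each group except HSO, which had 4 (replicates 1, 3, 4 and 5), so 29 in all. Each sample pooled 2 to 3 oocytes. No genetic change or agent was applied to any group, and the ages of the goats were not given in the sources used here. The methods describe the high fertility oocytes of a stage as brought together and then divided into samples. A division into samples is listed for the low fertility oocytes too, without a statement that they were first brought together. Samples of a high fertility group are thus portions of 1 pool and not separate animals, and no sample of either population is tied to a goat. Every SD, SE and p-value here measures the spread between such samples and not between goats. In pooled oocytes, fewer cells of a type and less RNA per cell cannot be told apart.

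Splicing removes introns from precursor mRNA in the spliceosome, a machine built from small nuclear ribonucleoproteins (snRNPs). The Sm proteins form a ring around the RNA of most snRNPs, SF3A and SF3B belong to the U2 snRNP that binds the branch point, and many PRPF proteins act in the tri-snRNP or in the activation of the spliceosome. SR proteins (SRSF) and hnRNPs bind the transcript itself and influence which splice sites are used. A growing oocyte transcribes and stores mRNA, while transcription falls silent as it reaches full size.

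The summed FPKM per sample ranged from 222697 in LMO replicate 2, the lowest by far, to 490048. Of 13 oocyte marker rows, 9 were above 0.5 FPKM in all 29 samples, among them GDF9, BMP15 and ZP3. Of 13 granulosa cell rows, 7 passed 0.5 FPKM in no sample, 4 of these were listed at 0 everywhere (AMH, AMHR2, HSD3B7 and NR5A1), and STAR and KITLG were above 0.5 in every sample.

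Among the members, genes of the small proteins of the Sm ring and of SF3B had by far the highest FPKM. The 8 leading rows were SNRPE (1884 FPKM on average over the 29 samples), SF3B6 (1481), SNRPG (1335), SNRPD2 (933), SNRPD3 (816), SF3B5 (706), SNRPD1 (307) and SNRPB2 (210). Together they held 90.8% of the FPKM of all 96 rows on average. All members together made 2.01% ± 0.333 (SD, n = 29) of a sample's summed FPKM. Apart from these 8, no row averaged above 100 FPKM. In all, 40 rows were above 0.5 FPKM in every sample, 68 passed the filter of 0.5 FPKM in at least 4 of the 29 samples, and 16 were listed at 0 in every sample.

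**Figure D1:**
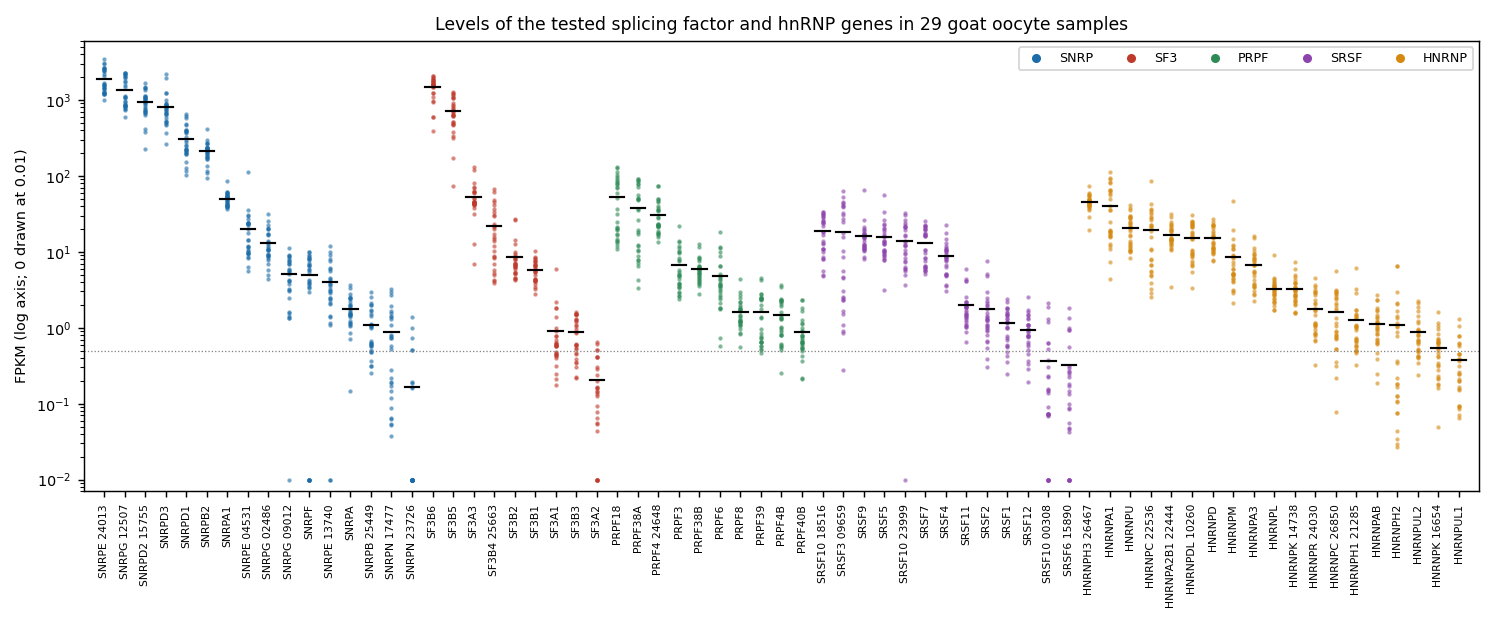
FPKM (log axis) of each of 67 of the rows that passed the filter in each of 29 samples (points), with the mean over all samples (black bar); colours give the class, a symbol shared by several rows carries the last 5 digits of its gene identifier, and the dotted line is 0.5 FPKM. The SNRP and SF3 classes run from means of 1884 and 1481 FPKM down to 0.167 and 0.207 FPKM, while no PRPF, SRSF or HNRNP row averages above 100 FPKM.

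The subunits of the Sm ring, which enter an snRNP in equal number, were listed at very unequal levels. SNRPE, SNRPG, SNRPD2, SNRPD3 and SNRPD1 averaged between 1884 and 307 FPKM. SNRPB, which codes for the remaining large Sm protein, averaged 1.08 FPKM and ranged from 0.250 to 2.98 FPKM. SNRPN, its close relative, averaged 0.867 FPKM in its leading row. SNRPE was above SNRPB in 29 of 29 samples, by 459-fold to 13710-fold. SNRPF had a single row at 4.96 FPKM, and it was listed at 0 in 6 samples. SNRPD3 was above SNRPD1 in 29 of 29 samples, with a median ratio of 2.58.

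The snRNP-specific proteins spanned a wide range as well. SNRPB2 and SNRPA1, partners in the U2 snRNP, averaged 210 and 50.0 FPKM. SNRPA of the U1 snRNP averaged 1.75 FPKM. SNRPC, another U1 protein, had a mean of 0.00927 FPKM and was listed at 0 in 27 samples. SNRPA1 was the steadiest of the tested members, from 36.6 to 86.5 FPKM with a coefficient of variation (SD over mean) of 0.208.

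The SF3 class showed the same inequality. In the SF3A trimer, SF3A3 averaged 52.5 FPKM, SF3A1 0.901 FPKM and SF3A2 0.207 FPKM. SF3A3 was above SF3A1 in 29 of 29 samples. In SF3B, the small subunits SF3B6 and SF3B5 stood at 1481 and 706 FPKM. SF3B4 followed at 21.6 FPKM and SF3B2 at 8.44 FPKM. SF3B1, the large subunit that clamps the branch point, averaged 5.76 FPKM, and SF3B3 averaged 0.870 FPKM. SF3B6 was above SF3B1 in every sample, by 58.5-fold to 655-fold.

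Of the PRPF genes, PRPF18, which acts in the second step of splicing, averaged 52.7 FPKM, and PRPF38A, an activation factor, 37.2 FPKM. The core of the catalytic centre was low: PRPF8 averaged 1.64 FPKM and ranged from 0.562 to 4.32 FPKM. PRPF4 and PRPF3, partners in the tri-snRNP, averaged 30.9 and 6.75 FPKM, and PRPF4 was higher in 29 of 29 samples. PRPF19, a ubiquitin ligase of the activated spliceosome, and PRPF31, a tri-snRNP protein, averaged only 0.151 and 0.107 FPKM. PRPF19 reached 0.5 FPKM in no sample and PRPF31 in 1.

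The SR proteins were of middling level. SRSF10 had a pair of rows at 18.6 and 13.8 FPKM, SRSF3 averaged 18.1 FPKM, SRSF9 16.3 FPKM, SRSF5 15.7 FPKM and SRSF7 13.1 FPKM. SRSF1, the classic SR protein, averaged 1.15 FPKM and SRSF2 1.78 FPKM. The leading SRSF6 row averaged 0.319 FPKM.

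Among the hnRNPs, HNRNPH3 led with 45.3 FPKM, followed by HNRNPA1 (40.0), HNRNPU (20.3), HNRNPC (19.1) and HNRNPA2B1 (16.8). HNRNPH3 was also steady, from 19.5 to 73.1 FPKM with a coefficient of variation of 0.216. HNRNPK, an abundant RNA and DNA binding protein in most cells, averaged 3.20 FPKM in its leading row. HNRNPA2B1 and HNRNPC form the core hnRNP particle with HNRNPA1. The former was above the latter in 13 of 29 samples, so neither led throughout. At the low end, HNRNPLL averaged 0.0232 FPKM and HNRNPA0 0.00518 FPKM.

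Many members share a symbol with another row, and the authors kept only uniquely placed reads, so near-identical copies can lose or exchange reads. This touched 49 rows of 17 symbols, among them all 16 rows listed at 0. In 13 of the 17 symbols the leading row held over 90% of the summed mean. The exceptions were HNRNPK (85.3%), SNRPN (83.8%), SRSF6 (78.9%) and SRSF10 (56.8%). Levels of SNRPE, SNRPG, SNRPD2, SNRPB, SNRPN, SF3B4, PRPF4, SRSF3, SRSF6, SRSF10 and the HNRNP genes A2B1, C, DL, H1, H3, K and R are therefore uncertain. Where such a symbol stands alone below, it means its leading row.

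The first comparison asks whether the members differed between the fertility populations within a stage. No member passed an adjusted p of 0.05 (limma, Benjamini-Hochberg over all genes tested) at any stage, and few genes did: 0% of all genes tested in large, 0.0715% in medium and 0.0119% in small follicles. At an unadjusted p under 0.05 there was 1 of 64 members in large follicles, where 4.14% of all 8328 genes tested passed. In medium follicles there were 2 of 62 members against 8.67% of all genes, and in small follicles 2 of 63 against 4.41%. The shares of members, 1.56%, 3.23% and 3.17%, all lay below those of all genes. With 4 or 5 samples a group, these counts do not show that the members were equal.

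**Figure D2:**
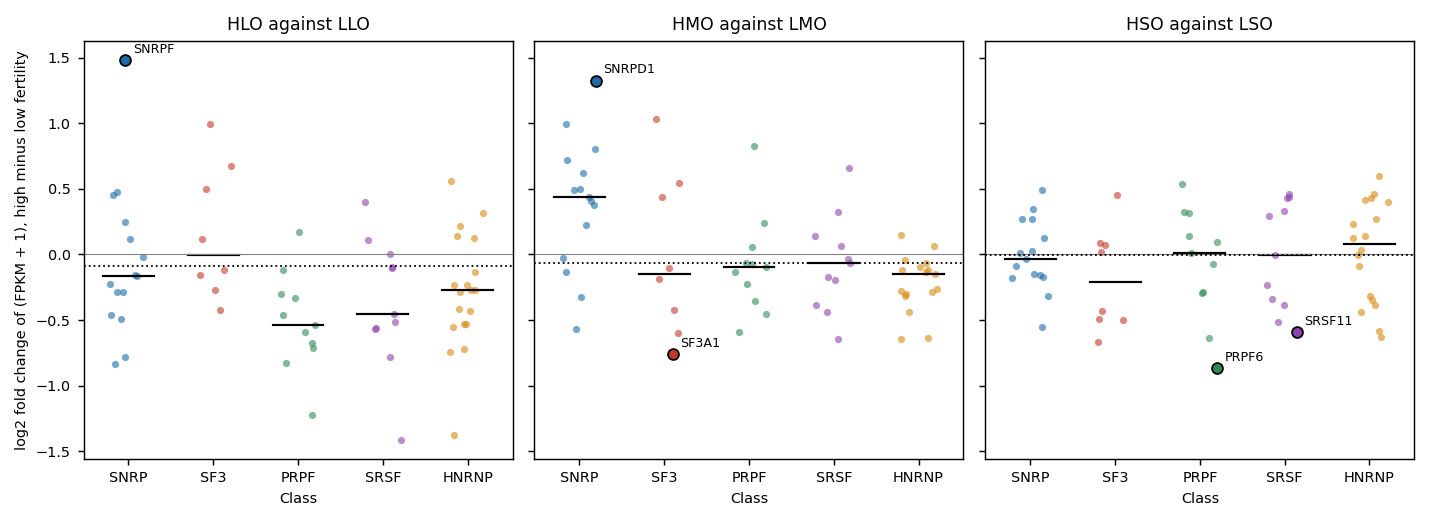
Log2 fold change of (FPKM + 1), high minus low fertility, of each tested member in large, medium and small follicles, by class; the bars are class medians, the dotted line is the median of all genes tested, and outlined, named points have an unadjusted limma p under 0.05. In medium follicles the SNRP median lies at 0.44 and SNRPD1 at 1.32, and in large follicles the PRPF median lies at -0.53.

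In medium follicles the lowest unadjusted p of the members was that of SNRPD1, the Sm protein D1. HMO replicates 1 to 5 had 653, 484, 366, 391 and 294 FPKM. LMO replicates 1 to 5 had 255, 102, 117, 196 and 224 FPKM. Every HMO sample was above every LMO sample, a pattern that 1.7% of all genes tested showed in either direction. The means were 438 ± 138 and 179 ± 66.9 FPKM (SD, n = 5 each), with a log2 fold change of 1.32 (SE 0.363) and an adjusted limma p of 0.213. Without LMO replicate 2 the log2 fold change was 1.14.

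The granulosa cell markers parted HMO and LMO as well. The 13 rows summed to between 12.8 and 20.9 FPKM in HMO and to between 23.2 and 41.6 FPKM in LMO, with AMH, AMHR2, HSD3B7 and NR5A1 listed at 0 in both. The 5 leukocyte marker rows summed to between 0.563 and 3.30 FPKM in HMO and to between 2.25 and 5.72 FPKM in LMO, and 4 of these rows were above 0.5 FPKM in no sample. In large follicles the granulosa cell sum lay between 21.8 and 37.5 FPKM in HLO and between 7.38 and 25.0 FPKM in LLO, and in small follicles between 21.5 and 37.6 FPKM in HSO and between 6.76 and 42.5 FPKM in LSO. Over all samples STAR, at a mean of 18.8 FPKM, and KITLG, at 4.71 FPKM, made up most of the granulosa cell sum. The part of these markers in the differences between the populations was not tested.

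SNRPD1 did not keep this order at the other stages. HLO replicates 1 to 5 had 404, 320, 206, 126 and 218 FPKM, and LLO replicates 1 to 5 had 406, 622, 194, 468 and 576 FPKM. HSO replicates 1, 3, 4 and 5 had 385, 152, 198 and 244 FPKM, and LSO replicates 1 to 5 had 373, 213, 220, 277 and 228 FPKM. The groups overlapped at both stages. The log2 differences, high minus low, were -0.83 in large, 1.32 in medium and -0.15 in small follicles. The interaction of fertility and stage had an unadjusted p of 0.00134 and an adjusted p of 0.256 (limma F-test).

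**Figure D3:**
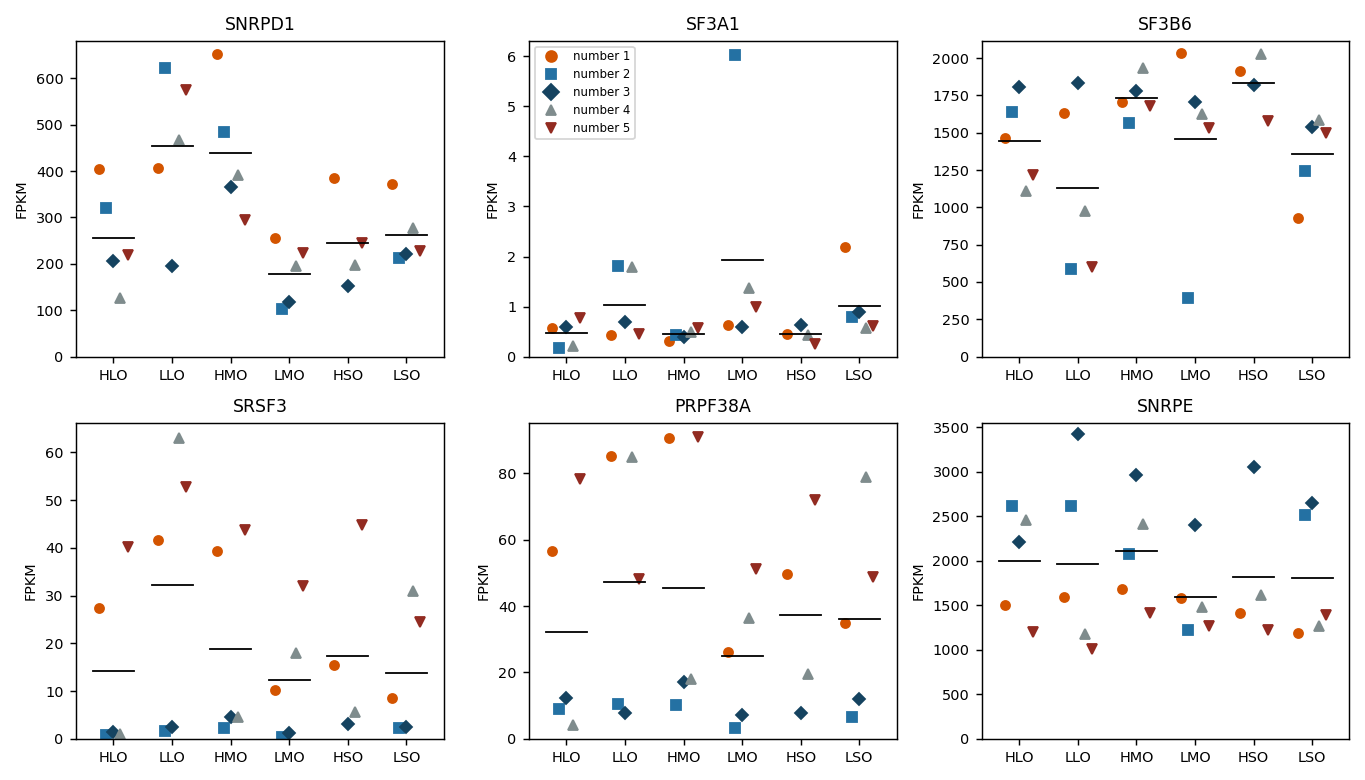
FPKM in each sample (points, shaped and coloured by replicate number) of SNRPD1, SF3A1, SF3B6, SRSF3, PRPF38A and SNRPE in the 6 groups; the bars are group means. SNRPD1 has no overlap between HMO and LMO, SF3A1 has 1 sample at 6.02 FPKM in LMO, and SRSF3 and PRPF38A are low in the samples numbered 2 and 3 of every group.

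SF3A1, a subunit of the U2 snRNP, was the other member without overlap in medium follicles, and lay lower in the high fertility group. HMO replicates 1 to 5 had 0.311, 0.433, 0.399, 0.485 and 0.579 FPKM. LMO replicates 1 to 5 had 0.630, 6.02, 0.584, 1.37 and 1.0004 FPKM. The log2 fold change was -0.76 (SE 0.345) with an adjusted limma p of 0.571, and -0.38 without LMO replicate 2. Over all stages SF3A1 had the lowest unadjusted p of the members, 0.00300, with a log2 fold change of -0.54 (SE 0.168) and an adjusted p of 0.423. Its mean was 0.450 ± 0.173 FPKM in the 14 high fertility samples and 1.32 ± 1.41 FPKM (SD) in the 15 low fertility samples. The latter mean includes the 6.02 FPKM of LMO replicate 2. These levels lie close to the filter of 0.5 FPKM.

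By class in medium follicles, the SNRP rows had a median log2 fold change of 0.44, and 11 of 15 were above 0, while all genes tested had a median of -0.07 and 43.5% above 0. With median-of-ratios size factors or quantile normalization the SNRP median was 0.51 or 0.20. The HNRNP rows lay the other way, with 15 of 17 below 0 and a median of -0.15 (-0.09 and -0.16 under these scalings). Of these 32 rows SNRPD1 alone had an unadjusted p under 0.05.

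In large follicles the members lay lower in the high fertility group, where 46 of 64 rows were below 0. Their median log2 fold change was -0.27, while that of all genes tested was -0.09 with 42.4% above 0. With size factors or quantile normalization the members' median was -0.15 or -0.24. It was -0.45 without LLO replicate 3, with -0.20 for all genes, and -0.15 without LLO replicate 5, with -0.05 for all genes. PRPF had 10 of 11 rows below 0 and a median of -0.53 (-0.37 and -0.40 under these scalings). PRPF8 was the exception, at 0.17. No PRPF row had an unadjusted p under 0.05. The member that did was SNRPF, the Sm protein F. HLO replicates 1 to 5 had 3.92, 6.02, 8.16, 6.56 and 3.92 FPKM. LLO had 6.76 and 7.88 FPKM in replicates 2 and 3 and was listed at 0 in replicates 1, 4 and 5, so its groups overlapped. The adjusted limma p was 0.828. No member was without overlap between HLO and LLO, a pattern shown by 0.432% of all genes tested.

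In small follicles the members were centred on 0. Of 63 rows 32 were above 0, where 49.2% of all genes were, and the median log2 fold change was 0.01 (-0.02 with quantile normalization). PRPF6, a tri-snRNP scaffold protein, had 1.74, 1.82, 3.69 and 2.66 FPKM in HSO and 10.1, 4.77, 3.78, 6.41 and 2.998 FPKM in LSO. Its log2 fold change was -0.87 (SE 0.350), with an adjusted limma p of 0.880. SRSF11, an SR-related protein, had 1.07, 1.27, 1.89 and 0.873 FPKM in HSO and 4.15, 1.96, 2.51, 1.89 and 1.87 FPKM in LSO. The groups overlapped in both genes.

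HNRNPUL2, an hnRNP U-like protein, was the member without overlap in small follicles, a pattern shown by 2.05% of all genes tested. HSO had 0.398, 0.650, 0.780 and 0.480 FPKM, and LSO had 0.966, 0.905, 0.819, 1.14 and 0.944 FPKM. The log2 fold change was -0.31 (SE 0.154), with an adjusted limma p of 0.880.

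Over all stages, with stage in the model, 7 of 68 members had an unadjusted p under 0.05, or 10.3%, where 9.99% of all 9692 genes tested did, so the members stood near the background. None passed the adjusted threshold, which 0.0103% of all genes did. Of the 7, 6 lay lower (8.82% of members, 6.59% of all genes) and 1 higher (1.47%, 3.39%) in the high fertility samples. Lower in the high fertility samples were SF3A1, SRSF11 (log2 fold change -0.43), HNRNPUL2 (-0.31), PRPF4B, a kinase of the spliceosome (-0.41), HNRNPL (-0.32) and HNRNPUL1 (-0.21). SF3B6 alone lay the other way, with a mean of 1660 FPKM against 1314 FPKM and a log2 fold change of 0.46 (SE 0.210). Its lowest value was 392 FPKM in LMO replicate 2, and without that sample the log2 fold change was 0.33 with an unadjusted limma p of 0.0616. The adjusted limma p of these 7 members ranged from 0.423 to 0.495. Without the samples numbered 4, 2 of 66 members had an unadjusted p under 0.05, or 3.03%, where 6.57% of all genes tested did.

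Between follicle sizes, no member had an unadjusted p under 0.05 in the F-test over the 3 stages, with fertility in the model, while 1.66% of all genes tested did, and no gene passed the adjusted threshold. The lowest p was 0.0820, for HNRNPUL1. In 63 of 68 members both medium and small follicles lay within 0.5 of large follicles on the log2 scale, and the widest difference was 0.57. The share of all genes within this limit was not counted, and the log2(FPKM + 1) scale understates changes of low genes. The count therefore does not set the members apart from other genes. The members' share of the summed FPKM was 2.04% ± 0.408 in large (n = 10), 2.01% ± 0.291 in medium (n = 10) and 1.98% ± 0.320 in small follicles (n = 9; SD).

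The interaction of fertility and stage had an unadjusted p under 0.05 in 3 of 68 members, or 4.41%, and in 7.89% of all genes tested. Besides SNRPD1 these were SF3A3 and the SRSF10 row ENSCHIG00000000308, which averaged 0.363 FPKM. SF3A3 was 0.996 higher on the log2 scale in HLO than in LLO and lower by 0.60 and 0.49 in HMO and HSO than in their counterparts. Its adjusted limma p was 0.563. LLO held its lowest values, 6.84 FPKM in replicate 2 and 12.6 FPKM in replicate 5, while LMO replicate 2 and LSO replicate 1 held its highest, 131 and 120 FPKM.

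Many more members differed with the replicate number in the labels than with fertility or stage. The labels do not say what the number marks, and this comparison was chosen after the values were seen. With the 6 groups in the model, 37 of 68 members differed between the 5 numbers at an adjusted limma p under 0.05, or 54.4%, and 50.5% of all genes tested did, so the pattern ran through the whole table. The called members were 8 of 11 PRPF rows, 12 of 19 HNRNP, 6 of 13 SRSF, 4 of 9 SF3 and 7 of 16 SNRP rows. Numbers 3 and 5 lay at the ends for many of these genes. Of the 37, 29 were higher in number 5 than in number 3 (42.6% of all 68, with 43.7% of all genes) and 8 the reverse (11.8%, with 6.75% of all genes).

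**Figure D4:**
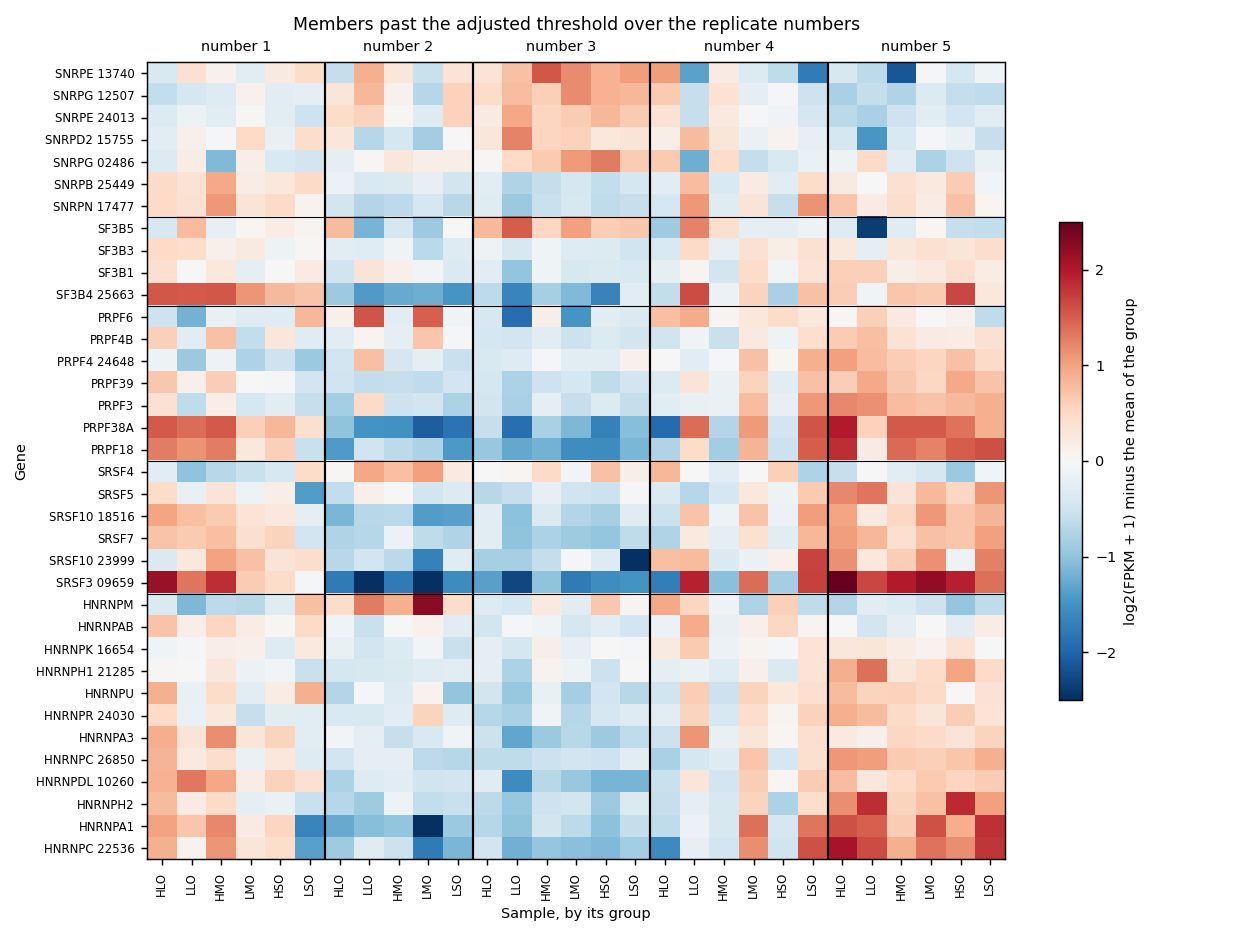
Deviation of log2(FPKM + 1) from the mean of the sample's group for 36 of the members past the adjusted threshold over the replicate numbers (rows, by class), in the 29 samples (columns, by number); red is above and blue below the group mean. Most PRPF, SRSF and HNRNP rows are blue in numbers 2 and 3 and red in number 5, several SNRP rows and SF3B5 run the other way, and number 4 is mixed.

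SRSF3, a short SR protein, had the lowest adjusted p of the members, 2.91e-05 (limma F-test). It ranged from 0.276 to 2.32 FPKM in the 5 samples numbered 2 and from 1.10 to 4.60 FPKM in the 6 numbered 3. It ranged from 8.54 to 41.5 FPKM in the 6 numbered 1 and from 24.4 to 52.8 FPKM in the 6 numbered 5. The lower pair of numbers did not overlap with the higher pair. In number 4 the populations parted: HLO, HMO and HSO had 0.911, 4.47 and 5.64 FPKM, and LLO, LMO and LSO had 63.0, 17.9 and 30.9 FPKM.

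PRPF38A had the same order. It ranged from 3.31 to 10.6 FPKM in number 2, from 7.22 to 17.2 FPKM in number 3, from 26.0 to 90.8 FPKM in number 1 and from 48.0 to 90.8 FPKM in number 5. In number 4 it ranged from 4.25 to 19.4 FPKM in the high and from 36.5 to 85.0 FPKM in the low fertility samples. All 8 called PRPF rows were higher in number 5 than in number 3, though PRPF4 lay at a log2 difference of -0.01 with quantile normalization. In PRPF18, PRPF38A, PRPF4, PRPF3, PRPF39 and PRPF4B, every sample numbered 5 was above every sample numbered 3. PRPF3, PRPF4 and PRPF4B lost this separation with size factors and with quantile normalization, while PRPF18, PRPF38A and PRPF39 had it under both.

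Among the hnRNPs, HNRNPA1 ranged from 15.9 to 19.2 FPKM in number 3 and from 39.6 to 114 FPKM in number 5. HNRNPC ranged from 4.91 to 10.998 FPKM and from 22.5 to 84.3 FPKM in the same samples. Both genes kept this separation with size factors and lost it with quantile normalization. HNRNPM, a regulator of alternative splicing, was the called hnRNP that ran the other way, with a mean of 6.91 FPKM in number 3 and 4.40 FPKM in number 5. SRSF4 was the called SR protein that did, with 9.62 and 6.29 FPKM. HNRNPM and SRSF4 lay highest in number 2 and not in number 3. They deviated from their group means by 1.07 and 0.61 on the log2 scale in number 2, and by -0.005 and 0.22 in number 3.

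Some of the abundant Sm genes had the reverse order. SNRPE ranged from 2213 to 3429 FPKM in number 3 and from 1007 to 1419 FPKM in number 5, and SNRPG from 1737 to 2277 and from 725 to 856 FPKM. SF3B5 and SNRPD2 were also higher in every sample numbered 3 than in any numbered 5. SNRPD3 and SNRPD1, which were not called, lay on the other side, at log2 differences (number 5 minus number 3) of 0.85 and 0.50, though SNRPD1 turned to -0.29 with size factors. The scarce SNRPB and SNRPN were higher in number 5 while the scarce SNRPF, not called, lay at -1.05. SNRPB ranged from 0.250 to 0.594 FPKM in number 3 and from 1.05 to 2.14 FPKM in number 5, and SNRPN from 0.0532 to 0.282 and from 0.582 to 1.92 FPKM. In all, 22 members were higher in every sample numbered 5 than in any numbered 3, or 32.4%, with 27.4% of all genes tested, and 4 members were lower, or 5.88%, with 2.65% of all genes.

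These directions carry a shift of the whole table: the median log2 difference of all genes tested, number 5 minus number 3, was 0.39, and it was 0.004 with size factors and -0.02 with quantile normalization. Relative to that shift the members were balanced, with a median of -0.005 and 0.01 under these scalings. PRPF still lay at 0.40 and 0.41 and SNRP at -0.91 and -0.60. HNRNP, at 0.64 without scaling, lay at 0.06 under both. SRSF, at 0.22 without scaling, lay at 0.03 and 0.02, and SF3, at -0.03, lay at -0.33 and -0.03. The called HNRNPAB turned from 0.16 to -0.18 under both scalings. Over all 68 members, 34 and 35 were higher in number 5 under these scalings, where 4864 and 4741 of all 9692 genes were. Over the numbers, 33 and 32 members passed the adjusted threshold, or 48.5% and 47.1%, where 45.5% and 45.1% of all genes did. With size factors 13 members were higher in every sample numbered 5 and 13 in every sample numbered 3, or 19.1% each, where 11.8% and 11.4% of all genes were. SRSF3, PRPF38A, HNRNPA1, HNRNPC, SNRPB and SNRPN kept their sign under both scalings, as did SNRPE, SNRPG, SNRPD2, SF3B5, HNRNPM and SRSF4 theirs.

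The sums over the members differed in the same way. The 88 rows outside the leading 8 summed to between 407 and 492 FPKM in number 3 and to between 920 and 1138 FPKM in number 5. The SNRP rows summed to between 6294 and 8049 FPKM in number 3 and to between 4129 and 5039 FPKM in number 5. In the same samples the 13 oocyte marker rows summed to between 1716 and 2356 FPKM in number 3 and to between 5184 and 12031 FPKM in number 5. Their part in the result was not tested.

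**Figure D5:**
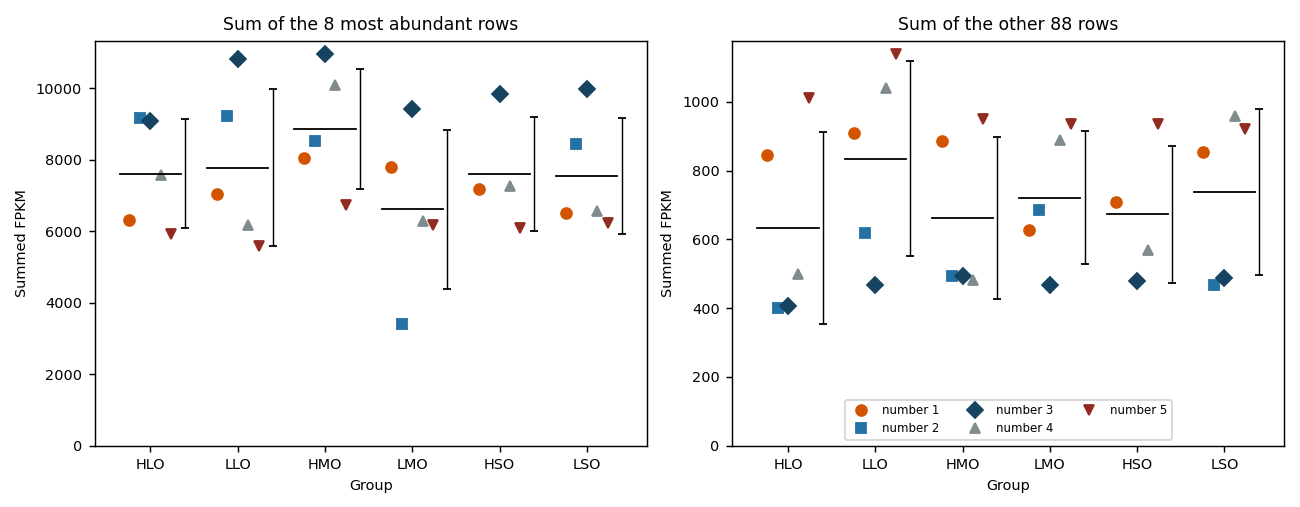
Summed FPKM of the 8 leading rows (left) and of the other 88 rows (right) in each sample, by group; shapes and colours give the replicate number, horizontal bars the group mean and the line beside it the SD. Number 3 has the lowest or near the lowest sum of the other rows in each group, between 407 and 492 FPKM, and number 5 lies between 920 and 1138 FPKM.

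The samples numbered 4 entered the fertility comparisons unevenly. Their 88 lesser rows summed to between 483 and 569 FPKM in the high and to between 889 and 1040 FPKM in the low fertility samples. Their oocyte markers summed to between 1961 and 3200 FPKM and to between 5556 and 7359 FPKM. Without the samples numbered 4, 2, 1, 1 and 2 members had an unadjusted p under 0.05 in large, medium and small follicles and over all stages, where 315 of 7879, 318 of 7979, 229 of 7813 and 618 of 9401 of all genes tested did, and none had an adjusted p under 0.05.

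A list of other splicing genes, among them LSM proteins, helicases, exon junction proteins and SR kinases, was read from the same fits. It held 128 rows. None passed the adjusted threshold between the populations, and 3 of 94, 7 of 96 and 5 of 96 had an unadjusted p under 0.05 in large, medium and small follicles. The shares of all genes tested were 4.14%, 8.67% and 4.41%. In large follicles these were CDC40, a second-step factor (log2 fold change -1.26), the SR kinase SRPK1 (-1.33) and GEMIN8 of the SMN complex (1.04). In medium follicles the lowest p was that of a row of SNRNP27, a tri-snRNP protein (log2 fold change 3.94, with an adjusted limma p of 0.133), whose other row had a log2 fold change of 0.22. The same SNRNP27 row lay the other way in large (-1.17) and small follicles (-2.61). LSM7 and BUD31 lay at 1.02 and 1.84 in medium follicles. A row of RBM39, a splicing coactivator, lay at -2.50 there and its other row at -0.30, and DDX23 lay at -0.60. In small follicles they included SRRM2, a scaffold of nuclear speckles (-0.82), and CDC40 (-0.69), each without overlap between the groups. Other named genes also changed sign between stages. CDC40 lay at 0.57, GEMIN8 at -0.68 and SRPK1 at 0.08 in medium follicles. BUD31 lay at -0.67 and the first RBM39 row at 1.43 in large follicles, and LSM7 at -0.23 in small follicles. SRRM2 and DDX23 were below 0 at each stage. Over all stages, 17 of 101 rows had an unadjusted limma p under 0.05, 13 of them lower and 4 higher in the high fertility samples. Of all genes tested 9.99% did, 6.59% lower and 3.39% higher. Over the replicate numbers, 57 of 101 rows passed an adjusted p of 0.05, or 56.4%, where 50.5% of all genes tested did.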

How the data were processed

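Oocyte mRNA was sequenced on an Illumina instrument after selection with oligo(dT) beads, while the labels name total RNA. The authors discarded reads without a unique position or with 5 mismatches or more, took out duplicates by picard, and deposited FPKM per Ensembl gene that Cufflinks 2.2.1 computed. The aligner and the genome build are not given in the sources used here. FPKM are not counts, so depth was not derived from them and no counting interval is given. Columns were assigned by name, and 1 column of values that matched no sample was left out. No pair of samples was identical.

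In each comparison, genes that passed 0.5 FPKM in 4 or more samples were tested on log2(FPKM + 1) with the limma trend method (limma 3.58.1, R 4.3.3), two-sided, with Benjamini-Hochberg adjustment over all genes tested. Fold changes on this scale understate changes of low genes. The script was tested on simulated data. Members and lists were chosen with earlier results of these data known.

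Named were members with an adjusted p under 0.05, up to 6 a direction (4 in F-tests) by unadjusted p, those without overlap between groups, the 3 highest and 2 lowest of each class by mean, the 3 most and least variable, members that share a symbol, 11 core members, and up to 3 other splicing genes a direction. A gene that this rule names is not reported here. Further genes were named after their values were seen, including subunits of the Sm ring and SF3 and those of the replicate numbers. Alternatives were another pseudocount, other filters, scalings and weights, 1 fit over all samples, a replicate block, and leaving out samples. Whether replicate numbers pair the samples was checked by the correlation of their deviations from group means.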

Additional observations from a re-analysis of the deposited data

Results flagged for a closer look

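Dixon's test was run on 90 sets, each of 1 named gene, or of 1 sum or share over the members, in 1 group. In 6 of the 90, all of them of a gene, 1 sample lay far from the others. Chance alone gives about 1 in 20. LMO replicate 2, which had the lowest summed FPKM, had 6.02 FPKM of SF3A1 where the other LMO samples had 0.584 to 1.37, and 392 FPKM of SF3B6 where they had 1529 to 2034. LSO replicate 1 was listed at 0 for SNRPF where the others had 5.67 to 8.93 FPKM, and had 2.19 FPKM of SF3A1 (others 0.567 to 0.900) and 8.95 FPKM of HNRNPL (others 2.45 to 3.56). LLO replicate 4 had 2.09 FPKM of the SRSF10 row ENSCHIG00000000308, where the others had 0 to 0.309.

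The difference between high and low fertility varied between stages at an unadjusted p under 0.05 of the limma interaction test in SNRPD1 (p of 0.00134), SF3A3 (p of 0.0316) and the SRSF10 row ENSCHIG00000000308 (p of 0.0423). None of these passed adjustment over all genes in the model without a replicate block.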

How the results depend on the processing

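No member passed an adjusted limma p of 0.05 between the populations, stages or in their interaction under most alternatives. The exceptions were sample weights, with 5 members in medium follicles (SNRPD1 and SNRPG ENSCHIG00000002486 higher in HMO, PRPF4B, SF3B3 and HNRNPD lower) and 5 over all stages (HNRNPU, PRPF4B, SF3A1, HNRNPR and HNRNPA1, all lower in the high fertility samples), and the replicate block, with 1 in the interaction (SNRPD1, adjusted p = 0.0390). Members with an unadjusted p under 0.05 numbered 1, 2, 2, 7, 0 and 3 in large, medium and small follicles, over all stages, over the F-test of stages and in the interaction. With sample weights they numbered 15, 25, 5, 29, 4 and 11, where 16.5%, 39.8%, 8.11%, 33.8%, 8.43% and 16.7% of all genes passed, and 12.1% and 7.13% of all genes passed the adjusted threshold in medium follicles and over all stages, beside 8.06% and 7.35% of members. With the replicate block they numbered 4, 6, 3, 11, 0 and 5, where 8.21%, 16.4%, 9.41%, 15.1%, 2.86% and 14.5% of all genes passed. With quantile normalization they numbered 4 in large and 4 in medium follicles, 1 in the F-test and 5 in the interaction. There 6.48%, 9.74%, 2.02% and 10.1% of all genes passed. With median-of-ratios size factors they numbered 3 in large and 1 in small follicles, 1 in the F-test and 5 in the interaction. There 5.86%, 5.46%, 1.64% and 9.61% of all genes passed. Without a filter they numbered 0 in large follicles, where 609 of 15959 genes passed, and 5 in the interaction. With a filter of 1 FPKM they numbered 1 in medium follicles, where 587 of 6982 genes passed. In 1 fit over all samples they numbered 6 in large and 1 in small follicles. There 950 of 8328 and 360 of 8376 genes passed. Without the samples numbered 4, an alternative chosen after the data were seen, they numbered 2, 1, 1, 2, 0 and 3. Leaving out 1 sample at a time gave 0 to 4, 1 to 9, 0 to 2, 4 to 11, 0 to 1 and 2 to 7, with 0 members past the adjusted threshold throughout. The 9 came without LMO replicate 3, where 968 of 8327 genes passed. The 4 in large follicles came without HLO replicate 5 or LLO replicate 3, where 472 of 8072 and 879 of 8256 genes passed. The fertility differences of genes named for their p or for groups without overlap had 1 sign under the alternatives run; the directions over the replicate numbers are not covered by this. Outside the members, SNRNP27 passed adjustment in medium follicles with the block, with weights and without HMO replicate 2, and LSM7 and DDX23 did with weights. The causes were not tested.

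The replicate numbers could not be taken to pair the samples: same-numbered samples deviated together in most pairs of groups (mean r = 0.363 over 70 pairs, 55 of them above 0.1, and -0.0911 over 280 pairs of different numbers), but not in every one. In number 4, r between the populations was -0.0476 in large, -0.415 in medium and -0.481 in small follicles. The count of members that differed over the numbers was 37, ranging from 32 to 53 over other settings and from 31 to 39 when 1 sample was left out. The 53 came with sample weights (77.9% of members, 79.5% of all genes). The 32 came with quantile normalization (47.1%, 45.1%) and without a filter (40%, 27.3%). The 31 came without LLO replicate 3 (45.6%, 46.1%) or LMO replicate 3 (45.6%, 45.2%), and the 39 without HLO replicate 4 (57.4%, 53.3%).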
